A study of Mus musculus with 6 samples.

Results

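Cxcr4, Ackr3, Cxcl12, Erbb4, Nrg1 and Nrg3 are the ligands and receptors of the chemokine and neuregulin signals that guide young interneurons out of the medial ganglionic eminence, or MGE, a ventral part of the forebrain where many cortical interneurons are born. They were chosen by name, 6 genes of the 38561 in the count table, and all 6 passed the filter on low counts that left 16495 genes for testing. The table lists Ackr3 under its older symbol Cxcr7, and it was matched by its gene identifier. RNA was sequenced from tdTomato-positive telencephalic cells of C57BL/6 mouse embryos at E11.5, in mid-gestation. The 4 control libraries had the genotype Nkx2.1-Cre;ROSAloxSTOPloxTdTomato, and the 2 heterozygous libraries had Magoh lox/+ in addition to the same Cre and reporter, to ask how loss of a Magoh allele changes these cells. In both groups the Cre follows Nkx2-1 and switches on the tdTomato reporter, so the cells sorted are those with a history of Nkx2-1 expression. The labels do not say whether each library came from a separate embryo. The p-values therefore cover the spread between these 6 samples, which may be technical. In bulk RNA, fewer cells of a type and less RNA per cell cannot be told apart.

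Cxcl12 is a secreted chemokine made in the embryonic brain largely by the meninges and by cortical progenitors. Cxcr4 is its signalling receptor, coupled to Gi proteins, and Ackr3 is a second receptor that binds Cxcl12, recruits arrestin and takes the ligand up. Together they hold migrating interneurons in their tangential streams. Erbb4 is a receptor tyrosine kinase of these cells, and Nrg1 and Nrg3 are ligands that carry an EGF-like domain and bind it.

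The 3 receptors had most of the reads. The reference sequences upstream of their starts are shown as a description, and their part in the levels was not tested. Each window holds the 250 bases before the RefSeq start (GRCm38.p6), written 5′ to 3′ on the gene's strand, and of the 6 genes the table of promoters has an entry for 5, not for Nrg1. Capitals mark matches on either strand to TATAAA or to GGGCGG (a GC box). These motifs were chosen after the windows had been read. A further motif, TAATTA, a homeodomain core, was searched on both strands and had no match in the 5 windows.
Cxcr4 (chr1:128592300-128592549, minus strand): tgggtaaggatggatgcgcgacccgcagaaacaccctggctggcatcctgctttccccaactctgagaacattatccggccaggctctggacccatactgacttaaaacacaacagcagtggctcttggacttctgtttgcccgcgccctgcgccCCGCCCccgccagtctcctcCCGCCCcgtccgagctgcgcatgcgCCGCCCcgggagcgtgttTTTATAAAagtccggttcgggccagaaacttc
Ackr3 (chr1:90203730-90203979, plus strand): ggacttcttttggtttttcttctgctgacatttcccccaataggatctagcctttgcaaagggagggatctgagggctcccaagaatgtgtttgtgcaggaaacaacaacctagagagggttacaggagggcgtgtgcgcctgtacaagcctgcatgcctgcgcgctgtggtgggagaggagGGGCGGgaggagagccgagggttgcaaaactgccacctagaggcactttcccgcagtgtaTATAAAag
Erbb4 (chr1:69108060-69108309, minus strand): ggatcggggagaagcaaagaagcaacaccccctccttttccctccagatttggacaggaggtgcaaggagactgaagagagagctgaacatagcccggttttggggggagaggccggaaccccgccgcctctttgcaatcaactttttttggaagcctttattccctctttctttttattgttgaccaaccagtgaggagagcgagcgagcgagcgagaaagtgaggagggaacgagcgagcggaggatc
The Cxcr4 window held TATAAA 30 bases before the start, overlapping its reverse complement at 32 bases, and 3 GC boxes. The Ackr3 window held TATAAA 8 bases before the annotated start and 1 GC box. The Erbb4 window held none of the 3 motifs. Among 32851 windows of this length, TATAAA was found in 12.4%, GGGCGG in 32.7% and TAATTA in 4.84%, overlaps included. The Cxcr4 window had 19 CpG dinucleotides and a GC content of 61.2%, against 7 and 54% for Ackr3 and 12 and 54% for Erbb4. These features were not confined to the receptors. The Cxcl12 window, not shown, held 5 GC boxes and no TATAAA, with 14 CpG dinucleotides and a GC content of 64.4%. That of Nrg3 held none of the 3 motifs, with 27 CpG dinucleotides and a GC content of 72.4%.

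The gene models differ in size. Cxcr4 (ENSMUSG00000045382; chromosome 1, 128588199 to 128592293, GRCm38) spans 4.095 kb with 2 exons in its longest coding transcript. Ackr3 (ENSMUSG00000044337; chromosome 1, 90203980 to 90216751) also has 2 exons and spans 12.77 kb. Cxcl12 (ENSMUSG00000061353; chromosome 6, 117168535 to 117181367) has 4 exons. Erbb4 (ENSMUSG00000062209; chromosome 1, 68032186 to 69108059), Nrg1 (ENSMUSG00000062991; chromosome 8, 31814551 to 32884029) and Nrg3 (ENSMUSG00000041014; chromosome 14, 38368952 to 39473088) span over a megabase each, with 27, 13 and 10 exons. The exons of Nrg1 share 482 bases with those of Gm26578 on the other strand, which had at most 6 reads in a library, and no other member shares exon bases with a gene.

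The libraries held 37429290 to 49189360 counts, and no pair of libraries agreed within sampling noise. Magoh stood at 68.1, 118, 63.6 and 74.3 CPM (counts per 1e+06 counts) in controls 1 to 4 and at 57.1 and 48.6 CPM in heterozygous libraries 1 and 2 (edgeR, adjusted p = 0.850). Reads from 4 Y-linked genes numbered 0 in control 2 and in heterozygous library 1, and 3453 to 4291 in each other library. Those 2 libraries also had less of long transcripts, set against short ones, than the rest. The median deviation of genes with at least 8000 bases of exon, minus that of genes under 1000, was -0.75 log2 units for control 2 and -0.32 for heterozygous library 1, while the other 4 libraries lay at 0.12 to 0.38. Sex and this length difference cannot be told apart. The defining markers of the labelled tissue were present in every library, with Nkx2-1 at 339 to 561 CPM and Lhx6 at 51.3 to 243 CPM. So were 9 markers of hypothalamus and preoptic area, which summed to 440 to 751 CPM in controls and to 586 and 526 CPM in heterozygous libraries 1 and 2. Both heterozygous libraries lay above all controls for 5 of these 9 and below for 1, against 6.17% and 8.14% of all tested genes. Of the 9, 0 passed edgeR.

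Per kb of exon, the receptors of Cxcl12 led. The control level was 35.3 ± 5.34 CPM per kb for Cxcr4 (SD, n = 4), higher than in 91.8% of 16266 tested genes, and 17.7 ± 4.93 for Ackr3, higher than in 82.3%. Erbb4 followed at 3.51 ± 0.677 CPM per kb, near the middle of all tested genes. The ligands were low. Cxcl12 stood at 0.873 ± 0.210 CPM per kb, Nrg1 at 0.408 ± 0.116 and Nrg3 at 0.377 ± 0.121. Cxcr4 was above Ackr3, Ackr3 above Erbb4, Erbb4 above Cxcl12 and Cxcl12 above Nrg1 within each of the 6 libraries. Nrg1 was above Nrg3 in every library but control 2, where they stood at 0.341 and 0.482 CPM per kb. Their ranges over the 6 libraries overlapped, at 0.283 to 0.533 and 0.190 to 0.482 CPM per kb, and the difference was not tested. Divided by the longest transcript instead of all exons, the levels of Cxcl12, Nrg1 and Nrg3 were 1.27, 0.780 and 0.640 CPM per kb. The order of these means was the same, but in heterozygous library 2 Cxcl12 was then below Nrg1, at 0.676 against 0.733 CPM per kb.

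**Figure D1:**
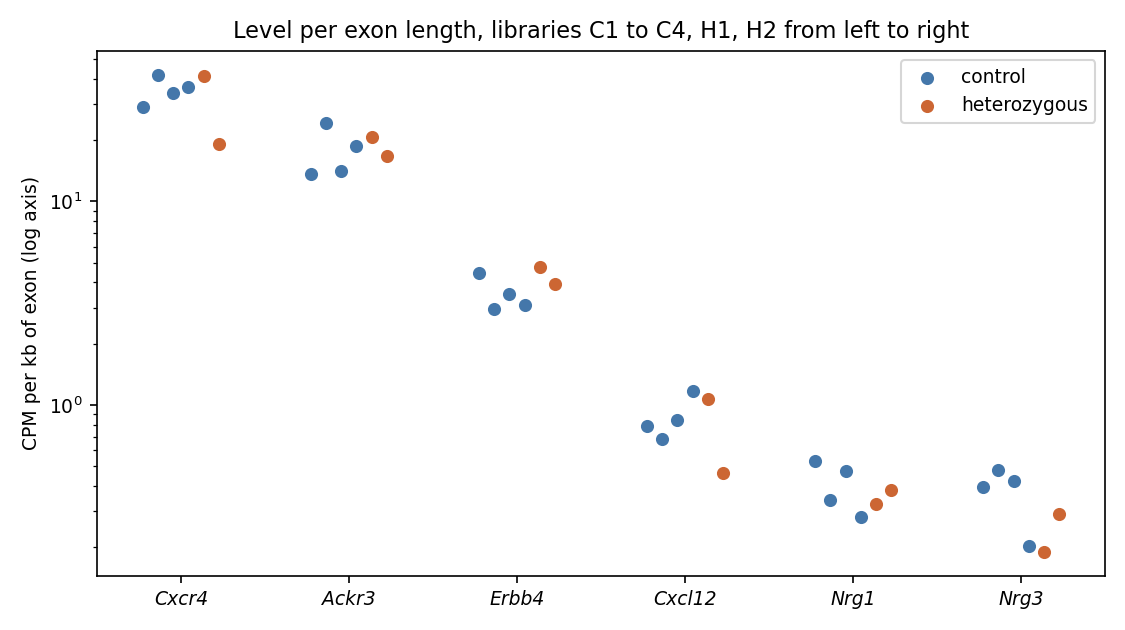
Level of each gene per kb of exon (CPM per kb, log axis) in the 4 control libraries (blue) and the 2 heterozygous libraries (orange), in the order C1 to C4, H1, H2. Cxcr4 lies between 19.1 and 41.9 CPM per kb, Erbb4 between 2.95 and 4.76, and Nrg3 between 0.190 and 0.482.

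None of these genes was called between genotypes. In the edgeR fit 0 of the 6 had an adjusted p under 0.05, against 0% of all 16495 genes, and 0 had an unadjusted p under 0.05, against 5.72% of all genes. DESeq2 called 0 of the 6, against 0.455% of all genes, and limma-voom called 0. For 0 of the 6 did both heterozygous libraries lie outside the control range, against 14.3% of all genes. Cxcr4, Cxcl12, Nrg1 and Nrg3 had log2 fold changes below 0, 4 of 6 against 53.9% of all tested genes, and Ackr3 and Erbb4 above 0, 2 of 6 against 46.1%. The median was -0.19, beside -0.03 over all tested genes. The 95% interval given with each gene shows which differences 4 against 2 libraries still allow.

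Cxcr4 was split between the heterozygous libraries. It stood at 52.5, 75.8, 61.5 and 65.6 CPM in controls 1 to 4 and at 74.8 and 34.6 CPM in heterozygous libraries 1 and 2. Heterozygous library 2 was thus the lowest of all 6, with 1701 reads, and library 1 lay near the highest control. The control mean was 63.9 ± 9.65 CPM (SD, n = 4) and the heterozygous mean 54.7 ± 28.4 CPM (SD, n = 2), and the log2 fold change was -0.22 ± 0.30 (SE), with a 95% interval from -0.93 to 0.48 (edgeR, adjusted p = 0.999). The value turned on heterozygous library 2, since the log2 fold change was 0.22 without it and -0.87 without library 1 (edgeR, adjusted p = 0.905 and 0.611). Among libraries without Y-linked reads, heterozygous library 1 differed from control 2 by -0.019 log2 units. Among those with Y-linked reads, heterozygous library 2 differed from the mean of controls 1, 3 and 4, which was 59.9 ± 6.66 CPM (SD, n = 3), by -0.79 log2 units. An edgeR fit on those 4 libraries alone, where the lone heterozygous library is assumed to vary like the controls, gave -0.78 (adjusted p = 0.164).

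Ackr3 did not share this pattern. It stood at 45.9, 81.2, 47.1 and 62.4 CPM in controls and at 69.1 and 56.1 CPM in heterozygous libraries 1 and 2, both inside the control range. Its control mean was 59.1 ± 16.5 CPM (SD, n = 4) and its heterozygous mean 62.6 ± 9.20 CPM (SD, n = 2). The log2 fold change came to 0.08 ± 0.26 (SE), with a 95% interval from -0.52 to 0.68 (edgeR, adjusted p = 0.999). Its sign changed in 4 of 17 alternatives. Control 2, in which long transcripts were lowest, was the highest library for Cxcr4 and Ackr3, the members with the fewest exon bases (1808 and 3348), and the lowest for Erbb4, the member with the most (12355). It was also the highest for Nrg3, which has 6817. Once trends on exon length and GC content had been taken out of every library, the log2 fold changes of Cxcr4, Ackr3 and Erbb4 were -0.17, 0.15 and 0.51 (edgeR, adjusted p = 0.917, 0.927 and 0.605). In the same fit Cxcl12 and Nrg1 came near 0, at -0.015 and -0.021, and Nrg3 stood at -0.56 (edgeR, adjusted p = 0.996, 0.993 and 0.823).

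Erbb4 had its highest value in a heterozygous library. It stood at 55.1, 36.5, 43.6 and 38.3 CPM in controls and at 58.8 and 48.5 CPM in heterozygous libraries 1 and 2. Library 1 was above every control, while library 2 lay below control 1. The control mean was 43.4 ± 8.36 CPM (SD, n = 4) and the heterozygous mean 53.7 ± 7.29 CPM (SD, n = 2). The log2 fold change came to 0.31 ± 0.21 (SE), with a 95% interval from -0.18 to 0.79 (edgeR, adjusted p = 0.948). Without heterozygous library 1 it was 0.17 (edgeR, adjusted p = 0.951). The difference was 0.69 log2 units between heterozygous library 1 and control 2, and 0.09 between heterozygous library 2 and controls 1, 3 and 4.

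**Figure D2:**
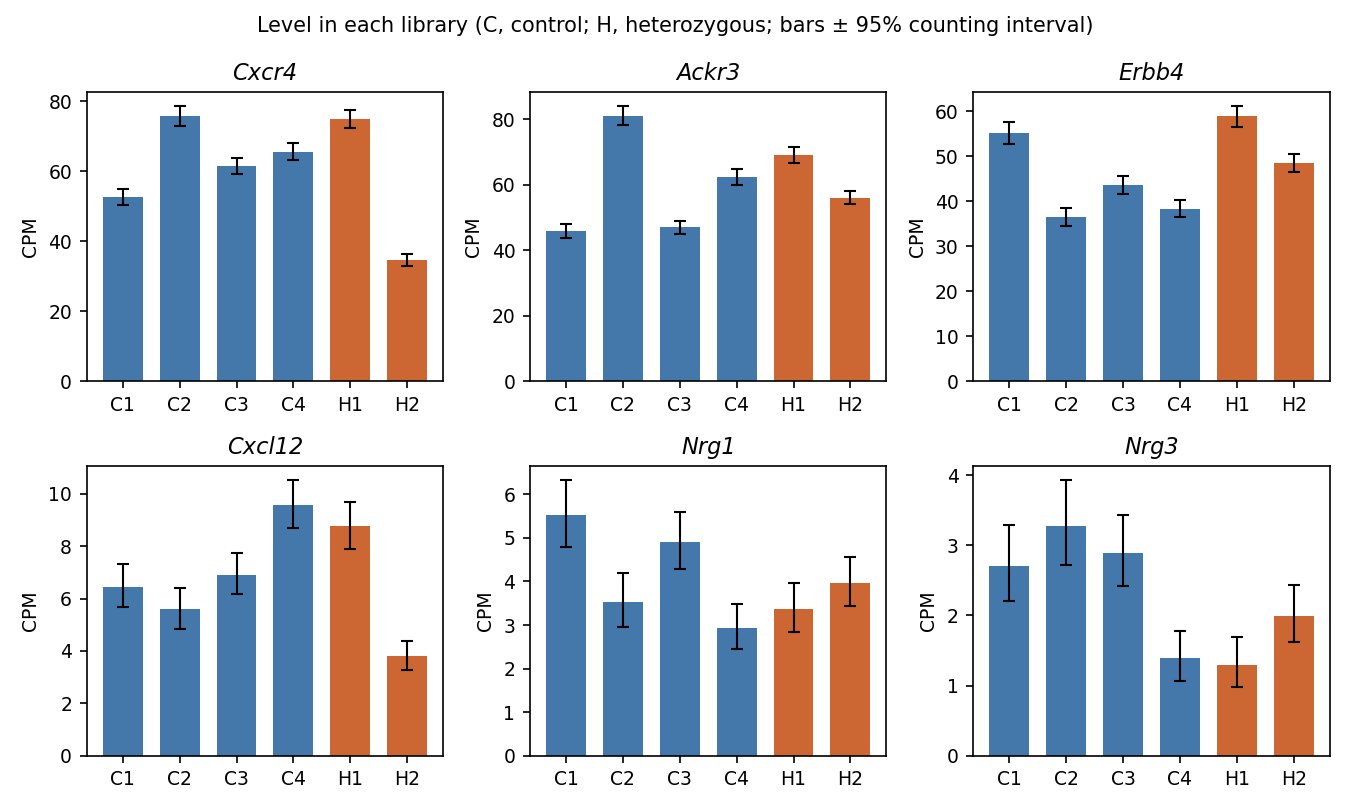
Level (CPM) of the 6 genes in controls C1 to C4 (blue) and heterozygous libraries H1 and H2 (orange), with error bars that are exact 95% Poisson intervals of the read counts and cover counting error only. Cxcr4 and Cxcl12 are lowest in H2, at 34.6 and 3.80 CPM, while Ackr3 in H2 lies among the controls.

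The ligand Cxcl12 showed the same split as Cxcr4. It stood at 6.46, 5.59, 6.92 and 9.58 CPM in controls and at 8.77 and 3.80 CPM in heterozygous libraries 1 and 2, from 187 to 428 reads. Library 2 was again the lowest of the 6, and library 1 lay inside the control range. The control mean was 7.14 ± 1.72 CPM (SD, n = 4) and the heterozygous mean 6.29 ± 3.51 CPM (SD, n = 2). The log2 fold change came to -0.19 ± 0.38 (SE), with a 95% interval from -1.06 to 0.69 (edgeR, adjusted p = 0.999). Without heterozygous library 2 it was 0.29, and without library 1 it was -0.90 (edgeR, adjusted p = 0.908 and 0.679). For scale, heterozygous library 2 was the lowest of the 6 libraries for 19.2% of all tested genes.

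Markers of meninges, mesenchyme and pericytes, cells that are known to make Cxcl12, moved with it as a sum. The 12 markers summed to 151, 112, 157 and 200.04 CPM in controls 1 to 4 and to 185 and 75.0 CPM in heterozygous libraries 1 and 2. This placed the 6 libraries in the same order as Cxcl12, which held for 1 of 11 marker lists compared. A low sum in heterozygous library 2 was not particular to this list. Surface ectoderm and neural crest and glia markers also had their lowest sums there, at 3.30 and 14.9 CPM, as did microglia and blood markers. Their controls summed to at least 5.43 and 18.8 CPM for the first and second of these lists. Markers of the MGE lineage and of young neurons instead had their highest sums there. Heterozygous library 2 was lowest, or tied for lowest, in 10 of the 12 markers. The ties were in Rgs5 and Kcnj8, which mark pericytes and had at most 0.283 CPM in any library, with 0 reads in control 2 as well. The other 2 markers, the receptors Pdgfrb and Pdgfra, stood at 7.34 and 10.4 CPM in heterozygous library 2, inside their control ranges of 6.37 to 13.7 and 8.73 to 14.3 CPM. Col1a2, a collagen chain of mesenchyme and the most abundant of the list in controls, stood at 39.6 to 80.1 CPM in controls and at 56.9 and 21.3 CPM in the heterozygous libraries. The part of such cells in the Cxcl12 values was not tested. The sort was for tdTomato-positive cells, and whether cells without the reporter remained was not tested.

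**Figure D3:**
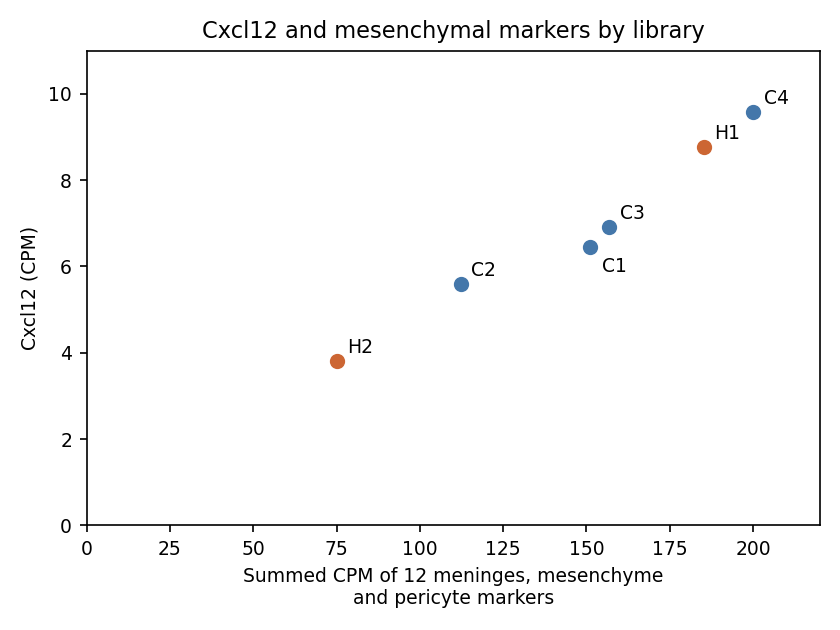
Cxcl12 (CPM) against the summed CPM of 12 meninges, mesenchyme and pericyte markers in the 6 libraries (C, control; H, heterozygous). Both values are lowest in H2, at 3.80 and 75.0 CPM, and highest in C4, at 9.58 and 200.04 CPM.

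Markers of other cell types also varied. The 10 microglia and blood markers summed to 13.2 to 103 CPM in controls and to 147 and 0.0610 CPM in the heterozygous libraries, and 9 of them had 0 reads in library 2. The high sum in heterozygous library 1 was mostly globin of red blood cells, with Hbb-y at 111 CPM and Hba-a1 at 28.4 CPM. The microglial genes Cx3cr1 and Csf1r stood at 1.23 and 3.11 CPM there. Control 4 had the most of them, at 17.6 and 28.2 CPM, and no other control exceeded 0.950 and 0.965 CPM. The 10 endothelial markers summed to 5.26 to 27.0 CPM in controls and to 10.3 and 7.91 CPM in the heterozygous libraries. The 8 Cajal-Retzius markers, of cells that carry Cxcr4 at the cortical surface, summed to 136 to 221 CPM in controls and to 215 and 218 CPM. These markers differed. Reln stood at 35.8 to 61.4 CPM in controls and at 55.0 and 28.2 CPM in heterozygous libraries 1 and 2. Ebf3 stood at 24.7 to 42.2 CPM and at 47.6 and 53.5 CPM, and Trp73 had at most 0.610 CPM in any library. Whether such cells were present was not tested. None of the 11 lists placed the libraries in the order of Cxcr4, and their part in its values was not tested.

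The neuregulins were the least abundant members. Nrg1 stood at 5.52, 3.53, 4.91 and 2.93 CPM in controls and at 3.37 and 3.97 CPM in heterozygous libraries 1 and 2, from 127 to 222 reads. Both heterozygous values lay inside the control range. The control mean was 4.22 ± 1.20 CPM (SD, n = 4) and the heterozygous mean 3.67 ± 0.422 CPM (SD, n = 2). The log2 fold change came to -0.20 ± 0.34 (SE), with a 95% interval from -0.98 to 0.58 (edgeR, adjusted p = 0.999). Nrg3 stood at 2.71, 3.28, 2.90 and 1.39 CPM in controls and at 1.30 and 1.99 CPM in heterozygous libraries 1 and 2, from 55 to 131 reads. Heterozygous library 1 was the lowest of the 6, just under control 4, and library 2 lay above control 4. The control mean was 2.57 ± 0.823 CPM (SD, n = 4) and the heterozygous mean 1.64 ± 0.493 CPM (SD, n = 2). The log2 fold change came to -0.64 ± 0.44 (SE), with a 95% interval from -1.67 to 0.39 (edgeR, adjusted p = 0.954). Nrg1 and Nrg3 kept a log2 fold change below 0 in all 17 alternatives, but its size varied, from -0.48 to -0.021 for Nrg1 and from -0.99 to -0.21 for Nrg3. For Nrg1 it was -0.047 without control 1, -0.077 without heterozygous library 1 and -0.12 without control 3, and it was -0.33 and -0.34 without heterozygous library 2 and without control 4. For Nrg3 it was -0.35 without heterozygous library 1 and -0.99 without library 2.

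**Figure D4:**
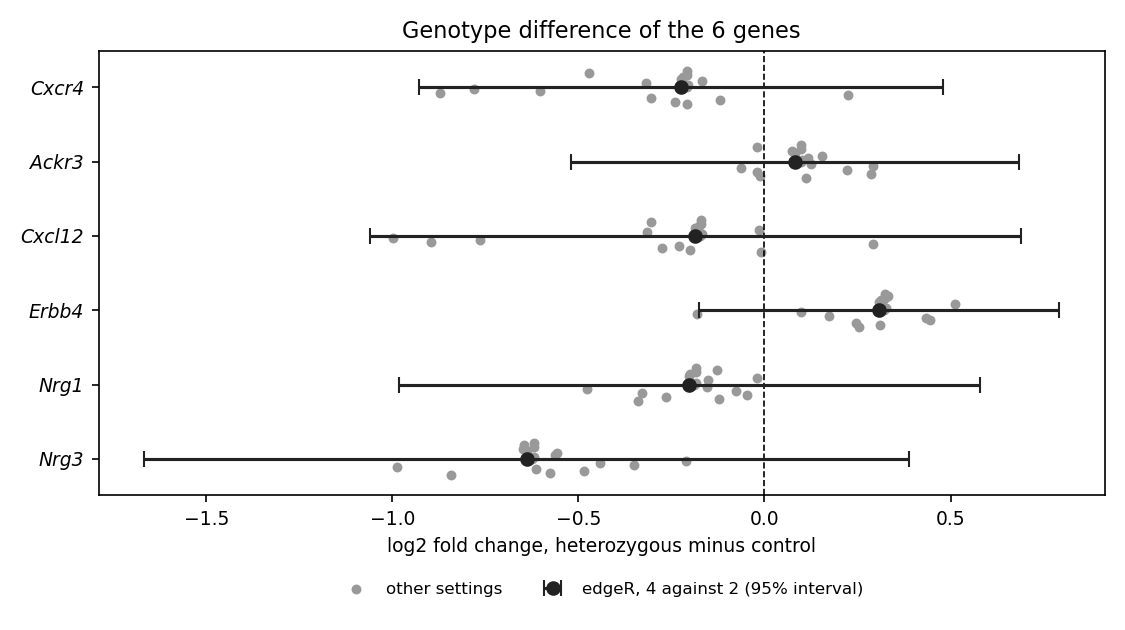
Log2 fold change of each gene, heterozygous minus control, in edgeR on 4 against 2 libraries (black point with its 95% interval) and in 17 alternative settings (grey points). All 6 intervals include 0, and the grey points of Cxcr4 run from -0.87 to 0.22.

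Ratios within a library, chosen after the values had been seen, do not depend on scaling between libraries. The length difference between libraries can still enter them, since the genes compared differ in exon bases (1808 for Cxcr4 and 3348 for Ackr3). There were 1.15, 0.934, 1.31 and 1.05 Cxcr4 reads per Ackr3 read in controls 1 to 4 and 1.08 and 0.617 in heterozygous libraries 1 and 2. Heterozygous library 2 was the lowest of the 6 (exact permutation test, two-sided, p = 0.267, and 0.64 adjusted over 6 ratios). The transcription factor Lhx6, which is known to act upstream of chemokine receptor expression in these interneurons, reached 243 CPM in heterozygous library 2, which had 0.143 Cxcr4 reads per Lhx6 read, against 0.475 to 1.28 in controls and 1.06 in heterozygous library 1 (exact permutation p = 0.4, adjusted 0.64). Ackr3 and Erbb4 per Lhx6 read were also lowest there, at 0.231 and 0.200, against 0.415 to 1.22 and 0.438 to 0.747 in controls (exact permutation p = 0.467 and 0.733, adjusted 0.64 and 0.733). Per kb, Erbb4 made up 25.7%, 27.1%, 19.5% and 17.4% of the summed level of the 4 ErbB receptor genes in controls, and 33.3% and 30.8% in the heterozygous libraries. The groups did not overlap in this share, as was so for the levels of 14.3% of all tested genes. The exact permutation test gave p = 0.133 and 0.64 adjusted over the 6 ratios, where 4 against 2 libraries cannot go below 0.0667. Erbb2, which is part of the sum, averaged 62.0 CPM over the controls and 44.9 CPM over the heterozygous libraries. Nrg1 made up 35.7% to 46.4% of the summed level of the 4 neuregulin genes in controls and 57.5% and 35.7% in the heterozygous libraries (exact permutation p = 0.533, adjusted 0.64).

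**Figure D5:**
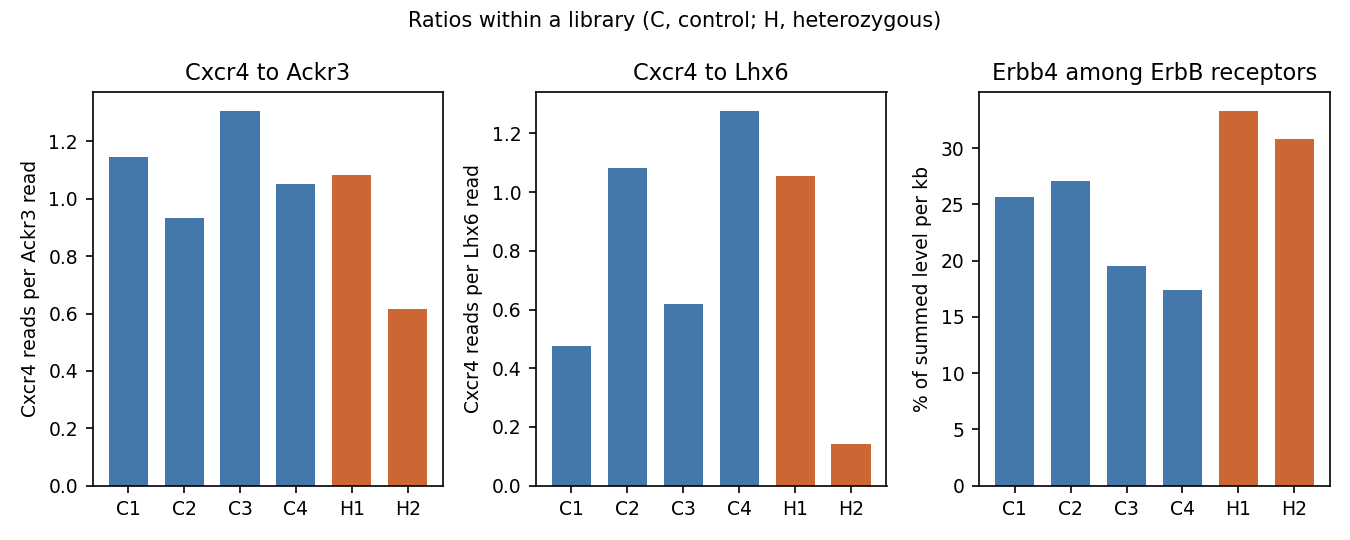
Cxcr4 reads per Ackr3 read, Cxcr4 reads per Lhx6 read, and Erbb4 as a percentage of the summed level per kb of Egfr, Erbb2, Erbb3 and Erbb4, in controls C1 to C4 (blue) and heterozygous libraries H1 and H2 (orange). H2 is lowest in the first and second panels, at 0.617 and 0.143, and both heterozygous libraries are above the controls in the third.

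No other gene of the ErbB and neuregulin pathway passed the test. A list of other receptors, ligands, proteases and adaptors had 21 tested genes, with a median log2 fold change of -0.15. The log2 fold change was above 0 for 7 and below for 14, against 46.1% and 53.9% of all tested genes. Of the 21, 0 passed edgeR over all genes. An unadjusted p under 0.05 was found for 0, against 5.72% of all tested genes. Erbb2, the partner with which Erbb4 can pair, averaged 62.0 ± 16.2 CPM over the controls (SD, n = 4) and 44.9 ± 1.11 CPM over the heterozygous libraries (SD, n = 2), but control 2 was lower still at 38.8 CPM. The adaptor Shc1 stood at 32.1 ± 6.31 and 23.8 ± 2.59 CPM, and both heterozygous libraries were below all controls. The same held for the feedback inhibitor Errfi1, at 22.3 ± 1.92 and 18.9 ± 0.773 CPM, and for Adam10, a protease of the cell surface, at 164 ± 7.12 and 149.8 ± 1.95 CPM. Lrig1, which promotes the turnover of ErbB receptors, stood at 45.4 ± 9.83 and 34.0 ± 2.64 CPM, and the adaptor Grb2 at 109.5 ± 15.6 and 128 ± 9.18 CPM. Both heterozygous libraries lay below all controls for 3 of the 21 genes, against 8.14% of all tested genes. Nrg2, Nrg4 and Egfr were at or under 1.23 CPM in every library, and the ligands Btc and Ereg had 0 reads in all 6, which allows up to 0.0835 CPM.

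Other chemokine signalling genes showed no common direction. Among the 19 that were tested, the log2 fold change was above 0 for 12 and below for 7, with a median of 0.09. The shares over all tested genes were 46.1% and 53.9%. Of the 19, 0 passed edgeR. An unadjusted p under 0.05 was found for 2, Gng2 and Cxcl14, against 5.72% of all tested genes. Gng2, a G protein gamma subunit, averaged 196 ± 31.1 CPM over the controls (SD, n = 4) and 284 ± 27.6 CPM over the heterozygous libraries (SD, n = 2), and the chemokine Cxcl14 stood at 2.32 ± 0.775 and 4.43 ± 1.30 CPM. Both heterozygous libraries were above all controls for these 2 genes, the count for the list, where the share over all tested genes was 6.17%. Rgs4, which shortens Gi signalling, stood at 10.3 ± 3.43 and 18.3 ± 8.59 CPM. The Gi subunit Gnai2, at 845 ± 36.8 and 834 ± 70.2 CPM, and Gnb1, at 945 ± 118 and 1072 ± 7.28 CPM, were the most abundant per kb. The chemokine receptor Cxcr3 and the ligand Cxcl11 had 0 reads in all libraries.

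Of 33 tested genes for other cues of tangential migration, 17 had a log2 fold change above 0 and 16 below, with a median of 0.04. The shares over all tested genes were 46.1% and 53.9%. Of the 33, 0 passed edgeR, and 3 had an unadjusted p under 0.05, against 5.72% of all tested genes. Both heterozygous libraries lay above all controls for 2 of the 33 and below for 2, against 6.17% and 8.14% of all tested genes. Slit2, a repellent secreted in the ventral forebrain, averaged 375 ± 115 CPM over the controls (SD, n = 4) and 215 ± 4.33 CPM over the heterozygous libraries (SD, n = 2), with control 2 at 218 CPM. Sema3a, a repellent read through neuropilins, stood at 6.79 ± 3.38 and 2.84 ± 0.523 CPM, with both heterozygous libraries below all controls. Gfra1, a receptor of Gdnf, stood at 57.5 ± 7.21 and 81.3 ± 18.6 CPM, with both above. Netrin 1 (Ntn1) stood at 344 ± 96.2 and 231 ± 60.05 CPM, and the semaphorin receptor Plxna1 at 420 ± 122 and 440 ± 135 CPM.

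Among 15 transcription factors of the MGE or of migrating interneurons, 12 had a log2 fold change above 0 and 3 below, with a median of 0.39. The shares over all tested genes were 46.1% and 53.9%. Of the 15, 0 passed edgeR, and 4 had an unadjusted p under 0.05, against 5.72% of all tested genes. Both heterozygous libraries lay above all controls for 3 of the 15, Dlx1, Nr2f1 and Nr2f2, and below for 1, Maf, against 6.17% and 8.14% of all tested genes. Maf averaged 31.2 ± 15.8 CPM over the controls (SD, n = 4), and its heterozygous values were 3.37 and 12.6 CPM. Control 2 was close to the higher of these, at 13.2 CPM. For Dlx1, control 1 was close to heterozygous library 1, at 151 CPM. Dlx1 stood at 152 and 289 CPM and Dlx2 at 346 and 657 CPM in heterozygous libraries 1 and 2, against control means of 128 ± 35.2 and 296 ± 92.4 CPM (SD, n = 4). Heterozygous library 2, the lowest for Cxcr4 and Cxcl12, was thus the highest for Dlx1 and Dlx2, as it was for 17.4% of all tested genes. Nr2f1 stood at 148 ± 18.5 and 194 ± 9.50 CPM, and Nkx2-1 at 433 ± 98.5 and 407 ± 82.8 CPM. The 12 markers of the MGE lineage summed to 978 to 1842 CPM in controls and to 1459 and 2832 CPM in the heterozygous libraries. For 12 markers of young neurons the sums were 2287 to 3436 CPM and 3829 and 4663 CPM. All 12 had a log2 fold change above 0, against 46.1% of all tested genes. Both heterozygous libraries lay above all controls for 7, against 6.17% of all tested genes. For 12 progenitor markers the sums were 4055 to 6960 CPM and 4169 and 4969 CPM. Of these, 4 had a log2 fold change above 0 and 8 below, against 46.1% and 53.9% of all tested genes. Both heterozygous libraries lay below all controls for 2, against 8.14%. The part of these differences in cell makeup in the members' values was not tested.

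The genes whose log2 CPM followed each member most closely over the 6 libraries were taken from 10305 genes that averaged 5 CPM or more, with Pearson's r as the measure and up to 3 genes named for each. With 6 libraries that also share differences in depth and in transcript length, these values are a description. Among those most like Cxcr4 were Dera (r = 0.996) and Xrcc2 (0.986), both lowest in heterozygous library 2. Ackr3 was most like Gpx1 (0.998), Mmgt2 (0.997) and Ndufa5 (0.996), each highest in control 2. Cxcl12 was most like Gdpd2 (0.991), Mdfi (0.986) and Galm (0.986), and Erbb4 was most like Clvs1 (0.976), Asb6 (0.972) and Ncoa4 (0.970). Nrg1 was most like Dock3 (0.984), Osbpl6 (0.969) and Astn2 (0.967). Nrg3 was most like Ccdc25 (0.976), Atf2 (0.962) and Col9a3 (0.961).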

How the data were processed

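Reads were trimmed, aligned and counted by the authors against mm10, for which the submitters' processing notes name STAR, HTSeq and Trim Galore. Versions, annotation, strandedness and the counting settings were not given in the sources used. The authors deposited raw read counts for 38561 Ensembl genes and a normalized signal for 18065 genes, which was checked to equal the counts over 1 factor in each library. Every column name matched the code in a sample's title by number and letter.

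The 6 members and all lists were chosen with earlier results of these data known. Symbols, coordinates and exon lengths came from GENCODE release M21 (GRCm38), promoter windows from RefSeq. Counts were filtered with filterByExpr, scaled by TMM and tested with edgeR 4.0.16 (robust glmQLFit and the two-sided glmQLFTest, under R 4.3.3). P-values were adjusted over 16495 genes by Benjamini-Hochberg, at a threshold of 0.05. The script was tested on simulated counts. A count of 0 allows up to 3 counts (0.0610 to 0.0835 CPM), which covers counting error only. Named list genes are the up to 4 with the smallest p and the 2 with the highest level per kb. Some genes that these rules select are not reported here. Further genes of these lists and the marker genes were named after their values were seen. Alternatives were DESeq2 1.42.0, limma-voom (limma 3.58.1), other scalings and filters, fitting without robust estimates, removal of length and GC trends, a covariate or a block, and leaving out libraries.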

Additional observations from a re-analysis of the deposited data

Results flagged for a closer look

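Cxcl12 moved in opposite directions in the 2 sets of libraries that Y-linked reads define. Without such reads, heterozygous library 1 was above control 2 by 0.65 log2 units. With them, heterozygous library 2 was below each of controls 1, 3 and 4, and differed from their mean by -1.01 log2 units. The difference between the sets was not tested, since each has 1 heterozygous library.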

How the results depend on the processing

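Of all genes, 0 passed in edgeR under its other settings, except that 11 passed with the sample code number as a replicate block. DESeq2 called 75. Only 1 code number is shared by both groups and the labels do not say what it marks, so the block compares heterozygous library 2 with control 1. There Erbb4 stood at -0.18 on the log2 scale, the opposite sign. Cxcr4, Cxcl12 and Nrg1 were further below 0 than without the block, at -0.60, -0.76 and -0.48. Ackr3 was further above 0, at 0.29, and Nrg3 was nearer to 0, at -0.44. With libraries left out in turn, log2 fold changes of Cxcr4 lay between -0.87 and 0.22, those of Ackr3 between -0.064 and 0.29, those of Cxcl12 between -0.90 and 0.29, those of Erbb4 between 0.17 and 0.44, those of Nrg1 between -0.34 and -0.047 and those of Nrg3 between -0.99 and -0.35. Leaving out heterozygous library 2 turned the sign of Cxcr4 and Cxcl12, and leaving out control 1, control 3 or heterozygous library 1 turned that of Ackr3. Without control 2 Cxcr4 was at -0.12 and Ackr3 at 0.29, and without control 4 Cxcl12 was at -0.0083. With Y-linked reads as a covariate Ackr3 stood at -0.021, Cxcr4 at -0.47 (edgeR, adjusted p = 0.445) and Cxcl12 at -0.31. The cause was not tested. No member passed in any of the 17 alternatives, where the smallest adjusted p was 0.164.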
